A study of Mus musculus with 35 samples.

Results

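The aminoacyl-tRNA synthetases are the enzymes that load each amino acid onto its transfer RNA (tRNA). The members were the 20 genes of the cytosolic enzymes and 15 genes of the mitochondrial enzymes, whose symbols end in 2. A probe set, the group of probes that reads 1 transcript on the array, was taken when the array annotation named exactly 1 gene for it and that gene was a member. This gave 70 probe sets of 34 members, out of 45101 probe sets in all, of which 34958 named 1 gene. Of these, 40 probe sets read 19 cytosolic enzymes and 30 read the 15 mitochondrial enzymes. Dars, the aspartyl-tRNA synthetase, had no probe set of its own and was not analysed here. Another probe set that named Aars together with Exosc6 was left out.

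Charging of tRNA is the step that matches each amino acid to its tRNA, and every cell needs it. Cytosolic enzymes serve the ribosomes of the cytoplasm and are transcribed in part under the transcription factor ATF4, which is translated when uncharged tRNA or unfolded protein leads to phosphorylation of the initiation factor eIF2. The mitochondrial enzymes are encoded in the nucleus and serve translation of the mitochondrial genome, while Gars and Kars each encode both the cytosolic and the mitochondrial form. In humans, dominant mutations in several cytosolic synthetase genes, GARS and YARS among them, cause axonal neuropathies of motor or sensory nerves.

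Expression was measured in lumbar motoneurons dissected by laser from frozen spinal cord, 300 cells per mouse and 1 array per mouse. SOD1G93A mice carry a high copy number of a mutant human SOD1 gene on a C57BL/6 background and develop motoneuron disease. The groups were SOD1G93A mice at week 11 (n = 8) and wild-type (WT) littermates at week 11 (n = 6), and at week 15 SOD1G93A mice given G-CSF (n = 7), SOD1G93A mice given vehicle (n = 7) and WT littermates (n = 7). G-CSF, a hematopoietic growth factor, or its vehicle was given from week 11 to week 15 by an osmotic minipump under the skin, and the methods describe the transgenic animals as females. The transgene is not limited to motoneurons. Week 15 goes with another cohort and, in SOD1G93A mice, with the pump, so that age, cohort and pump cannot be told apart. The methods describe the pump for transgenic mice only. In the comparisons with WT mice at week 15, genotype therefore cannot be told apart from pump and vehicle.

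Values are GCRMA intensities on a log2 scale, on which a difference of 1 is a doubling of signal, and levels of different genes are not compared. Of 10 motoneuron markers, 8 lay over the array median on every array, while Chat did so on 12 of 35 arrays. Markers of other cells were present too. On every array, 7 of 8 astrocyte, 4 of 6 oligodendrocyte and 4 of 5 interneuron markers lay over the array median. So did 4 of 13 microglial and 2 of 5 endothelial markers. The mean level of 13 microglial markers was 4.12 in SOD1G93A and 3.97 in WT motoneurons at week 11, and 4.43 with G-CSF, 4.53 with vehicle and 3.69 in WT motoneurons at week 15. Signal of 18S ribosomal RNA, read by 3 probe sets, averaged 10.40 in SOD1G93A and 9.62 in WT mice at week 11, against 11.67, 11.58 and 12.13 in the G-CSF, vehicle and WT groups of week 15. Vehicle mice 5 and 3 of week 15 and WT mouse 6 of week 11 stood apart, with a median correlation to the other mice of their groups of 0.886, 0.892 and 0.899, and values without these 3 arrays are given beside the calls that they changed. G-CSF mouse 3, with 0.894, was not among these 3 arrays. It was left out only in its turn, in the fits that each omitted 1 mouse. The differences between G-CSF and WT mice are thus the same without the 3 arrays. Each sample pools RNA of many cells, so a smaller number of expressing cells and less RNA per cell cannot be told apart.

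Most members were well expressed. The brightest probe set of a gene over all arrays stood for that gene, and 17 of 19 cytosolic but 9 of 15 mitochondrial enzymes lay over the array median on all 35 arrays. Among all members, 22 had more than 1 probe set. A filter on low or unvarying values left 31 of the 34 members to be tested, 17 cytosolic and 14 mitochondrial. The brightest probe sets of Eprs, Nars and Sars2 varied too little over the arrays to pass, and their differences are given without a test.

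Promoter sequence is shown because several cytosolic genes were higher at week 11 and because ATF4 acts through a short DNA element. RefSeq gave a promoter, from 250 bases before the start of transcription to 50 bases after it, for 27 of the 35 members on build GRCm38.p6. The 8 members without an entry were Cars, Hars, Lars, Nars, Rars, Vars, Wars and Pars2. The CEBP-ATF response element was searched as TGATGNAA on both strands. It occurred in 5 of 13 cytosolic and 0 of 14 mitochondrial promoters, against 4.51% of 27025 genes. The cyclic AMP response element, TGACGTCA, occurred in 0 of 27 members and in 2.03% of all genes. These matches are descriptions of letters and not of binding. The 250 bases before the start of Gars, on chromosome 6, and of Tars, on chromosome 15, are printed first, since both genes were called at week 11, with the element in capitals.
Gars, chr6:55037751-55038000, plus strand: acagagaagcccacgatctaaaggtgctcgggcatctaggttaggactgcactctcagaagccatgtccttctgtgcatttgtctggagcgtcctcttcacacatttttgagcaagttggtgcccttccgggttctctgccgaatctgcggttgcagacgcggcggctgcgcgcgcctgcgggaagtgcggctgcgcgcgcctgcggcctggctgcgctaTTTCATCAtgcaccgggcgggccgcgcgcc
Tars, chr15:11399659-11399908, minus strand: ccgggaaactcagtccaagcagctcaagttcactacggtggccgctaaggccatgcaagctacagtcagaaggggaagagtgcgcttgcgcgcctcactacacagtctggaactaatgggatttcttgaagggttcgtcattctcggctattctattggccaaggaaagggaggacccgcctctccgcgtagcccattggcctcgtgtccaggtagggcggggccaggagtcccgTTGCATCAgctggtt
In Gars the element begins 30 bases before the start and in Tars 15 bases before it, on the strand opposite to the gene in both. The other 3 genes with the element were Aars, Iars and Yars. Windows of 28 bases around the sites in Iars and Yars are given for comparison.
Iars, chr13:49682127-49682154, plus strand: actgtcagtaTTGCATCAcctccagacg
Yars, chr4:129189896-129189923, plus strand: cgagctcagcTGATGCAAcccgacggga
Counted from the start that each promoter entry uses, the sites in Iars and Yars lie in the first transcribed bases. The annotated locus of Yars begins further upstream, at position 129189734. In the 5 genes, the log2 difference between SOD1G93A and WT mice at week 11 was 1.02 for Tars, 0.94 for Gars, 0.61 for Yars, 0.44 for Iars and 0.12 for Aars. Of the 8 cytosolic genes whose promoter lacked the element, 7 were measured, and their differences were 1.00 for Sars, 0.60 for Kars, 0.44 for Mars, 0.18 for Eprs, -0.0024 for Farsb, -0.12 for Farsa and -0.15 for Qars. These values are of the brightest probe sets, and other probe sets of Farsa, Farsb and Qars lay on both sides, as given below. The values of genes with and without the element overlapped, and no relation between element and difference was tested. Wars and Rars, both called at week 11, had no promoter entry.

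At week 11, when motor signs had not yet appeared, 4 cytosolic enzymes and 1 mitochondrial enzyme were higher in SOD1G93A than in WT motoneurons and none was lower. A gene was called when its unadjusted p was under 0.05, its Benjamini-Hochberg adjusted p was under 0.1 and its fold change was at least 1.5. Of all 13697 genes tested in the same way, 1.56% were called higher and 0.204% lower. The 5 called members were Wars, Tars, Rars and Gars, which load tryptophan, threonine, arginine and glycine in the cytosol, and Iars2, which loads isoleucine in mitochondria. Among genes over the array median on every array, as most cytosolic members were, 1.91% were called higher.

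Wars gave the firmest difference. Its level ran between 8.07 and 8.94 (median 8.69) in SOD1G93A mice, against 6.31 and 8.37 (median 7.44) in WT mice. All 8 SOD1G93A values lay over the WT mean and 6 of 8 lay over every WT value, so that the groups overlapped in few mice. The difference was 1.12 ± 0.20 on the log2 scale (SE; fold change 2.17, adjusted p = 0.0034). It was kept in all 35 fits that each left out 1 mouse and under all 12 other settings.

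Tars ranged from 7.67 to 8.26 (median 7.93) in SOD1G93A mice and from 5.74 to 7.41 (median 7.11) in WT mice. The groups did not overlap. This was so for 0.423% of all genes in the upward direction. The difference was 1.02 ± 0.27 (SE, adjusted p = 0.061). Gars, the gene of a dominant human neuropathy, ranged from 10.22 to 10.56 (median 10.33) in SOD1G93A mice and from 7.58 to 9.96 (median 9.73) in WT mice. Here too every SOD1G93A mouse lay over every WT mouse, and the difference was 0.94 ± 0.26 (SE, adjusted p = 0.080). WT mouse 6 was the lowest of its group in both genes. Without it the difference was 0.56 for Gars (adjusted p = 0.21) and 0.79 for Tars (adjusted p = 0.20), and neither was called. Without all 3 arrays that stood apart the differences were the same, with adjusted p = 0.076 for Gars, which then missed the fold change, and adjusted p = 0.16 for Tars. With the 18S signal as a covariate Gars (0.73, adjusted p = 0.35) and Tars (0.97, adjusted p = 0.21) were not called either.

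Rars, a subunit of the multisynthetase complex, ranged from 7.19 to 8.74 (median 8.66) in SOD1G93A mice and from 5.68 to 8.18 (median 7.47) in WT mice. In this gene 7 of 8 SOD1G93A mice lay over every WT mouse, and SOD1G93A mouse 1 lay low in its group. The difference of Rars was 1.16 ± 0.32 (SE, adjusted p = 0.082) with all mice, 1.34 without SOD1G93A mouse 1 and 0.83 without WT mouse 6, where it was not called (adjusted p = 0.28), nor without all 3 arrays that stood apart (0.83, adjusted p = 0.23). Iars2 ranged from 6.18 to 7.15 (median 6.86) in SOD1G93A mice, against 5.60 to 6.52 (median 5.87) in WT mice. Its difference of 0.87 ± 0.25 (SE, adjusted p = 0.096) was the closest to the threshold, and it was called in 8 of the 35 fits that left out a mouse. In the same fits Tars was called in 29, Gars in 26 and Rars in 26. Without the 3 arrays that stood apart Iars2 kept its call (0.85, adjusted p = 0.033), as Wars did (0.89, adjusted p = 0.0088). Among the 12 other settings, Iars2 lost its call in 5. With the 18S covariate neither Rars (0.69, adjusted p = 0.49) nor Iars2 (0.72, adjusted p = 0.35) was called, so that Wars alone of the 5 kept its call, and Lars was called (0.98, adjusted p = 0.030).

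**Figure D1:**
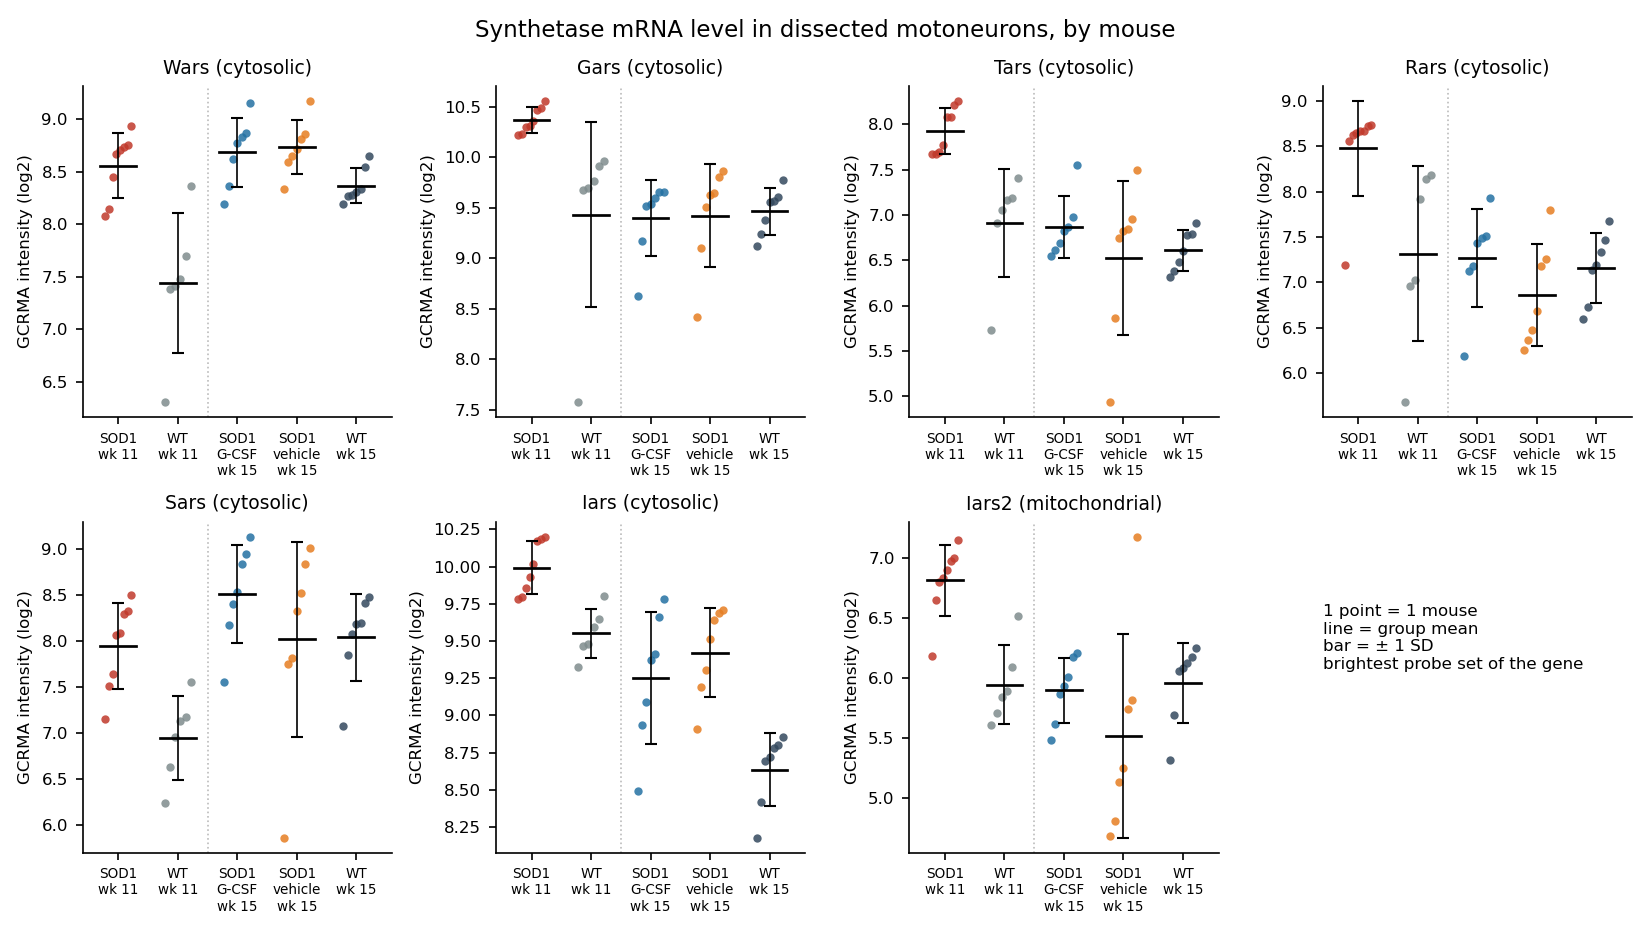
Log2 GCRMA intensity (vertical axis) of the 7 members called in at least 1 comparison, by group, with 1 point per mouse, the group mean as a line and 1 SD as a bar. The SOD1G93A mice of week 11 lie over all WT mice of that week for Gars and Tars, and the vehicle mice lie over all WT mice of week 15 for Iars.

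The other cytosolic enzymes lay mostly on the same side without passing the test. Of the 19 measured, 16 had a positive difference and the median was 0.44, against 8495 of 18194 genes with a positive difference and a median of -0.02 over all genes. Over the 9178 genes that lay over the array median on every array the median was 0.06. The largest differences that were not called were those of Sars (1.00, adjusted p = 0.18), Lars (0.68, adjusted p = 0.14), Yars (0.61, adjusted p = 0.11) and Kars (0.60, adjusted p = 0.71), which load serine, leucine, tyrosine and lysine. Yars was the third gene in which the groups did not overlap. Kars had a difference of -0.0034 without the 3 arrays that stood apart, of which WT mouse 6 belongs to this comparison. In that fit Sars (1.01, adjusted p = 0.099) and Vars (0.60, adjusted p = 0.025), which loads valine, were called. Nars and Eprs, untested in their brightest probe sets, had differences of 0.33 and 0.18. The 3 negative values were -0.15 for Qars, -0.12 for Farsa and -0.0024 for Farsb. Other probe sets of these genes lay on both sides. For Farsa, 8 of 8 SOD1G93A mice lay over the WT mean in 1424907_a_at and 0 of 8 in 1445003_at. For Farsb it was 7 of 8 in 1423708_a_at and 2 of 8 in 1430986_at. For Qars it was 6 of 8 in 1423712_a_at and 3 of 8 in 1456213_x_at.

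The mitochondrial enzymes were split, with 7 positive and 8 negative differences and a median of -0.17. That median was -0.07 with 5 positive without the 3 arrays that stood apart and -0.06 with the 18S covariate. After Iars2, the values farthest from 0 were 0.65 for Rars2, -0.38 for Nars2, -0.29 for Yars2 and 0.27 for Fars2, none of them called. The difference between the cytosolic and the mitochondrial class was given as a description and not tested.

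Groupings within the cytosolic class gave similar medians. The 10 class I enzymes, which share one catalytic fold, had a median of 0.44 with 2 called, and the 9 class II enzymes a median of 0.33 with 2 called. The 7 measured members of the multisynthetase complex had a median of 0.44 with 1 called, and the 12 free enzymes a median of 0.37 with 3 called. The 6 genes of dominant human neuropathy, Aars, Gars, Hars, Mars, Wars and Yars, all had positive differences, with a median of 0.53 and 2 called.

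**Figure D2:**
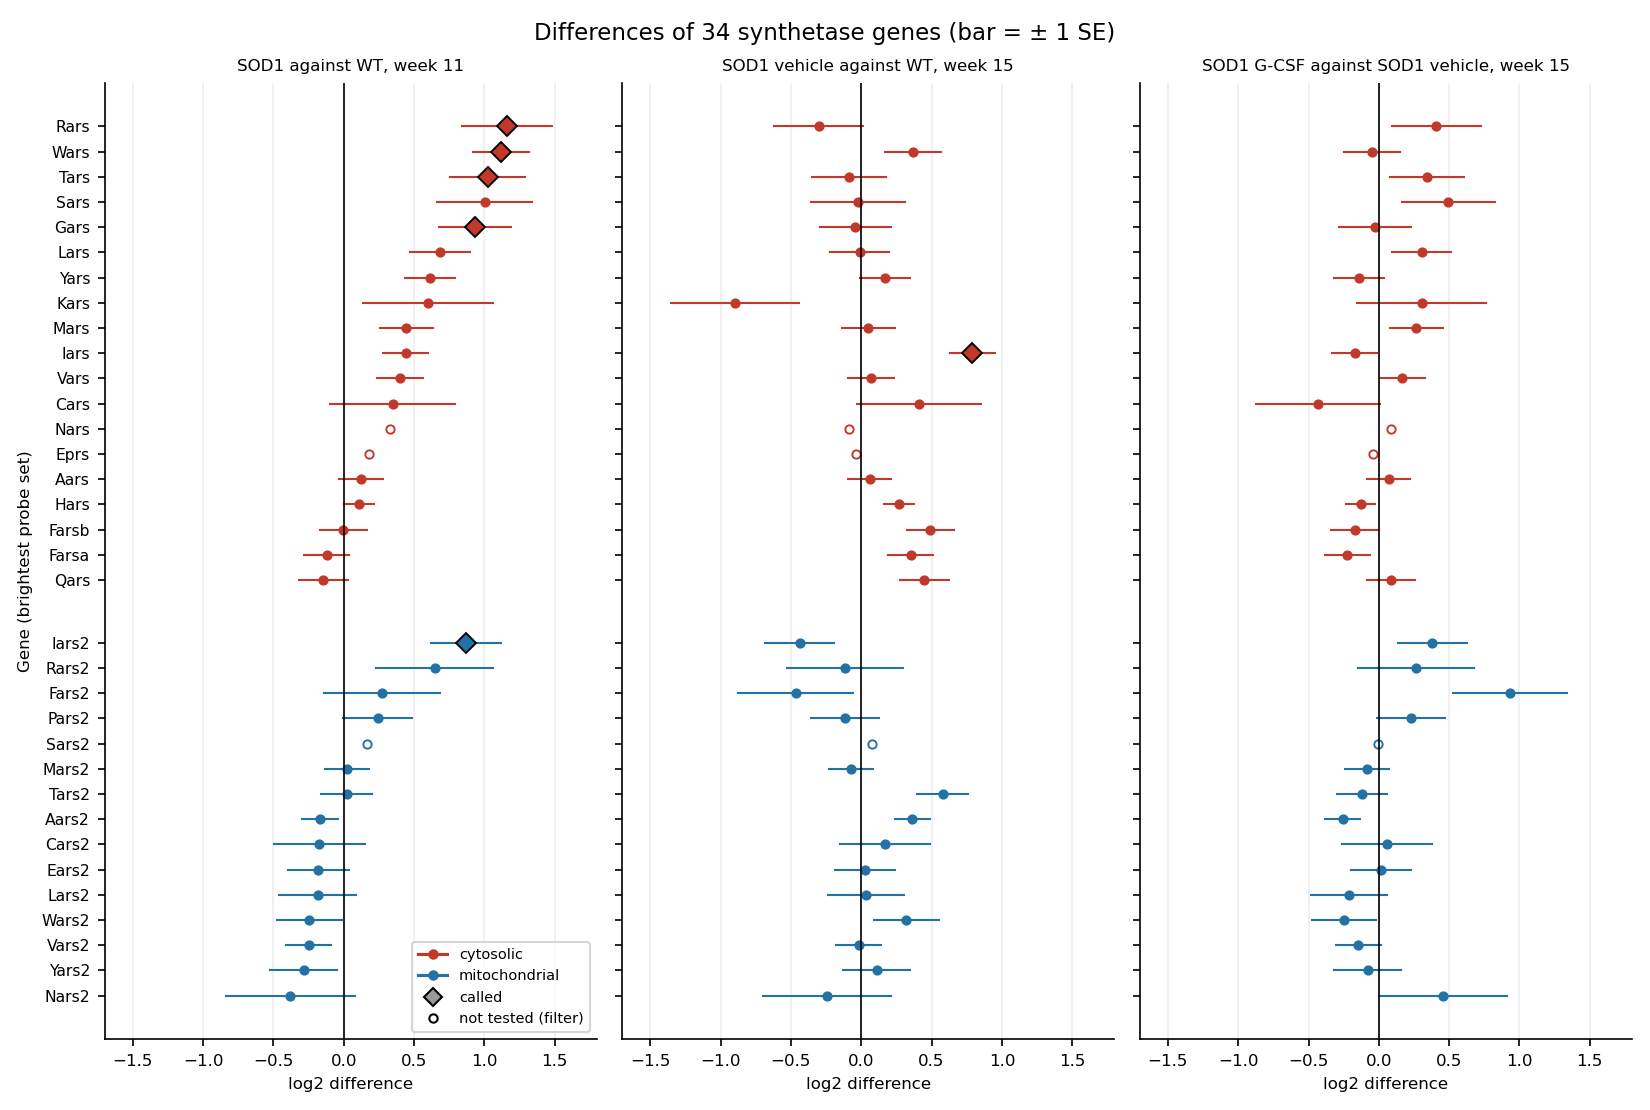
Log2 difference (horizontal axis) with its SE for the 34 members at week 11, at week 15 and between G-CSF and vehicle, cytosolic genes in red above mitochondrial genes in blue, diamonds for called genes and open circles for untested ones. At week 11 the red points lie mostly right of 0, with a median of 0.44, while in the other comparisons the medians are 0.06 and 0.07 (0.19 and 0.03 after quantile normalization).

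The shift was also read in each mouse, as the mean over a class of the deviation from the WT mean of the same week. For the 19 cytosolic enzymes it was between 0.22 and 0.70 (median 0.51) in the SOD1G93A mice of week 11, against -0.30 to 0.15 in the WT mice. No SOD1G93A mouse overlapped with WT in this mean, for which no share over other sets of genes was computed. At week 15 it ran between -0.07 and 0.31 with G-CSF, between -0.17 and 0.36 with vehicle and between -0.15 and 0.09 in WT mice, so that the groups overlapped. For the 15 mitochondrial enzymes the groups overlapped at both ages, from -0.31 to 0.20 in SOD1G93A and from -0.09 to 0.10 in WT mice at week 11.

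**Figure D3:**
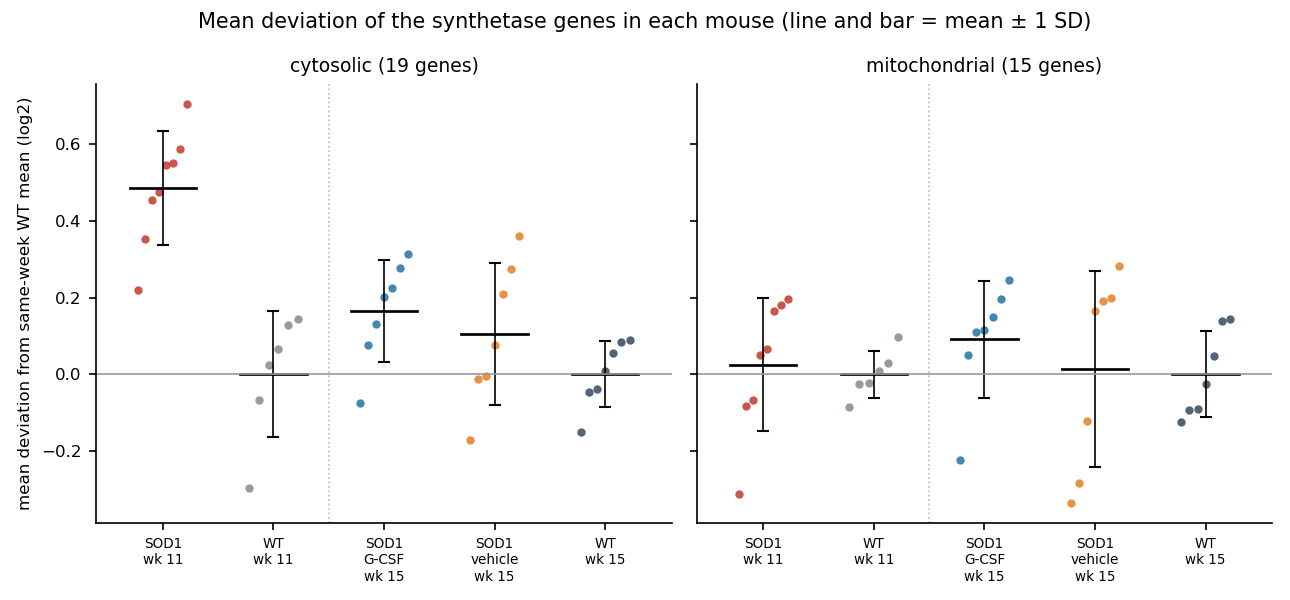
Mean deviation of the 19 cytosolic (left) and 15 mitochondrial (right) genes from the WT mean of the same week, on the log2 scale, with 1 point per mouse and the group mean ± 1 SD. The cytosolic values of SOD1G93A mice at week 11, from 0.22 to 0.70, lie over all WT values of that week.

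Marker values were read beside this shift. At week 11 the same per-mouse mean was 0.27 ± 0.23 in SOD1G93A mice for 10 motoneuron markers, 0.19 ± 0.07 for 6 general neuron markers, 0.46 ± 0.43 for 5 interneuron markers, 0.37 ± 0.39 for 8 astrocyte markers, 0.30 ± 0.26 for 6 oligodendrocyte markers, 0.15 ± 0.38 for 13 microglial markers and 0.09 ± 0.30 for 5 endothelial markers (SD, n = 8), each against a WT mean of 0. That WT mean is 0 by definition. In the same order, the SDs in WT mice were 0.23, 0.50, 0.52, 0.26, 0.47, 0.13 and 0.33 (n = 6). Of these markers, 1 general neuron and 1 astrocyte gene were called higher, beside 1.56% of all genes. The spread of signal over an array, its SD over all probe sets, was 2.36 in SOD1G93A and 2.30 in WT mice. The part of these in the synthetase differences was not tested. After quantile normalization, which sets that spread equal on all arrays, the cytosolic median was 0.35 with 16 of 19 positive, and 2 members were called. Without the 3 arrays that stood apart it was 0.50, and with the 18S signal as a covariate it was 0.42.

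At week 15, when motor signs were present, vehicle-treated SOD1G93A mice showed 1 called member, Iars, the isoleucyl-tRNA synthetase of the cytosol and a subunit of the multisynthetase complex. Of all genes, 1.98% were called higher and 5.27% lower in this comparison, and no member was called lower in its brightest probe set. Iars ranged from 8.91 to 9.71 (median 9.51) in vehicle mice and from 8.18 to 8.86 (median 8.72) in WT mice, without overlap. This held for 0.649% of all genes. The difference was 0.79 ± 0.16 (SE, adjusted p = 0.0046), and it was called in all 35 fits that left out a mouse. With the probe set of highest SD in place of the brightest it was 0.56 and not called (adjusted p = 0.46). At week 11 Iars had been between 9.79 and 10.20 in SOD1G93A and between 9.32 and 9.80 in WT mice, a difference of 0.44 (adjusted p = 0.24).

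The other members at week 15 were not called, and how far the cytosolic median lay over 0 depended on the setting. The median was 0.06 for cytosolic enzymes, with 11 positive and 8 negative differences, but 0.19 with 16 of 19 positive after quantile normalization, 0.16 with 13 positive without the 3 arrays that stood apart and 0.13 with 14 positive with the 18S covariate. It was 0.03 for mitochondrial enzymes, with 8 positive and 7 negative, and -0.05 without the 3 arrays, while all genes had a median of 0.05 and those over the array median on every array one of -0.06. Farsb, a subunit of the phenylalanyl-tRNA synthetase (0.49, adjusted p = 0.086), and the mitochondrial Tars2 (0.58, adjusted p = 0.061) and Aars2 (0.36, adjusted p = 0.097) passed the p thresholds and missed the fold change. After quantile normalization Farsb (0.63), Qars (0.60) and Tars2 (0.72) were called as well, and Tars2 was also called without the 3 arrays (0.70, adjusted p = 0.034). Kars had a difference of -0.90 with an SE of 0.46 and was not called. The remaining examples by size were 0.45 for Qars, 0.41 for Cars, -0.47 for Fars2 and -0.44 for Iars2.

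Markers of other cells moved in this comparison too. The per-mouse mean over the markers was 0.84 ± 0.36 for microglia, with 5 of 13 genes called higher and all 13 differences positive, 0.55 ± 0.63 for interneurons and 0.38 ± 0.29 for astrocytes in vehicle mice (SD, n = 7), each against a WT mean of 0. It was -0.27 ± 0.27 for general neuron markers, 2 of 6 called lower, -0.20 ± 0.35 for motoneuron markers and -0.28 ± 0.30 for oligodendrocyte markers. In the order of these lists, the SDs in WT mice were 0.13, 0.13, 0.29, 0.17, 0.12 and 0.16. The part of these in the synthetase differences was not tested.

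The members that were higher at week 11 were not called at week 15. Vehicle and WT mice overlapped in each of them. Wars lay between 8.33 and 9.17 with vehicle and between 8.19 and 8.65 in WT mice, a difference of 0.37 (adjusted p = 0.31). In its probe set 1437832_x_at, Wars averaged 7.76 ± 0.18 with vehicle and 7.23 ± 0.22 in WT mice (SD, n = 7 each), and 6 of 7 vehicle mice lay over every WT mouse. That difference of 0.53 (adjusted p = 0.079) passed the p thresholds and missed the fold change. Gars lay between 8.42 and 9.86 with vehicle and between 9.12 and 9.78 in WT mice, a difference of -0.04. Tars had a difference of -0.09, Rars of -0.30 and Iars2 of -0.44. Without the 3 arrays that stood apart Iars2 was called lower (-0.60, adjusted p = 0.081).

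Whether the SOD1G93A effect itself differed between the ages was tested as the effect with vehicle at week 15 minus that at week 11. The week 15 effect takes in the pump and vehicle. Rars (-1.46 ± 0.45 SE, adjusted p = 0.097) and Iars2 (-1.31 ± 0.35 SE, adjusted p = 0.065) were called lower, and none was called higher, where 2.42% of all genes were called lower and 0.81% higher. For Rars the call was kept in 13 of 35 fits that left out a mouse, and without WT mouse 6 of week 11 its difference was -1.14 (adjusted p = 0.20), and without all 3 arrays that stood apart -0.94 (adjusted p = 0.33). For Iars2 it was kept in 32 fits. Tars (-1.11, adjusted p = 0.13), Gars (-0.98, adjusted p = 0.16) and Wars (-0.75, adjusted p = 0.16) did not pass, so that their effects were not shown to differ between the ages. The median was -0.39 over the cytosolic and 0.21 over the mitochondrial enzymes, 0.06 over all genes and -0.15 over genes above the array median on every array. After quantile normalization the cytosolic median was -0.16, beside 0.04 over those same well expressed genes. The mitochondrial median was -0.02 without the 3 arrays that stood apart, 0.06 with the 18S covariate and 0.35 after quantile normalization.

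G-CSF against vehicle at week 15 gave 0 called members by limma, beside 0.0292% of all genes called higher and 0.0146% called lower. At an unadjusted p under 0.05 there were 2, Fars2, the mitochondrial phenylalanyl-tRNA synthetase (0.93 ± 0.41 SE, adjusted p = 0.53), and Aars2 (-0.26, adjusted p = 0.60). The methods' analysis of variance with Tukey's comparison also called 0. Cytosolic differences had a median of 0.07, which was 0.03 after quantile normalization and -0.04 with 8 of 19 positive without the 3 arrays that stood apart, and ran from -0.43 for Cars to 0.49 for Sars. Rars had 6.19 to 7.93 with G-CSF and 6.25 to 7.79 with vehicle, and Iars 8.50 to 9.78 with G-CSF and 8.91 to 9.71 with vehicle, ranges that largely coincided. The SEs of the 7 named members in this comparison were between 0.16 and 0.33.

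Against WT, the G-CSF mice showed Iars higher, as the vehicle mice did. Iars was between 8.50 and 9.78 (median 9.37) with G-CSF and between 8.18 and 8.86 (median 8.72) in WT mice, and 6 of 7 treated mice lay over every WT mouse. The difference was 0.61 ± 0.16 (SE, adjusted p = 0.063), where 0.467% of all genes were called higher and 0.978% lower. This comparison shares its WT mice with that of the vehicle group. In 7 of the 35 fits that left out a mouse, each a G-CSF or a WT mouse of week 15, Iars was not called. Tars2 lay over every WT mouse in all 7 G-CSF mice (0.46, adjusted p = 0.26) and was not called, a position held by 0.308% of all genes. The median difference from WT mice with G-CSF was 0.14 over the cytosolic enzymes, 15 of 19 of them positive, and 0.07 over the mitochondrial ones, beside 0.03 over all genes. After quantile normalization the cytosolic median was 0.22.

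In WT mice alone, week 15 against week 11 called 3 members. Sars and Wars were higher and Iars was lower, beside 2.53% of all genes called higher and 2.85% lower. Sars was between 7.08 and 8.49 (median 8.19) at week 15 and between 6.23 and 7.55 (median 7.04) at week 11, a difference of 1.10 ± 0.35 (SE, adjusted p = 0.067). Wars was between 8.19 and 8.65 at week 15 and between 6.31 and 8.37 at week 11, and its difference was 0.93 ± 0.21 (SE, adjusted p = 0.0069). Iars was lower in every mouse of week 15 than in any of week 11, as were 1.48% of all genes, and its difference was -0.92 ± 0.17 (SE, adjusted p = 0.0011). Hars, the histidyl-tRNA synthetase, was higher in every mouse of week 15 than in any of week 11, as were 1.19% of all genes. Its difference was 0.58 (adjusted p = 0.0015) and missed the fold change of 1.5. Without the 3 arrays that stood apart Hars (0.62, adjusted p = 0.00079) was called higher and Kars (-1.26, adjusted p = 0.018) lower. The 18S signal was 12.13 ± 0.28 at week 15 (SD, n = 7) and 9.62 ± 0.63 at week 11 (SD, n = 6), and with it as a covariate the difference of Sars was -0.76, that of Wars 0.36 and that of Iars -0.89, none of these called, while Hars (0.89) and Lars (1.27) were called higher. Markers of other cells differed between the WT ages too. The 5 interneuron markers had a median of -0.95, all negative and 2 called lower, and the 6 oligodendrocyte markers one of 0.59, with 3 called higher. Their part in the synthetase differences was not tested.

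Probe sets of 1 gene did not always give the same result. Over all 31352 probe sets tested, 1.13% were called higher and 0.188% lower at week 11. Wars was read by 4. At week 11 the probe sets 1415694_at (1.08, adjusted p = 0.044) and 1437832_x_at (1.08, adjusted p = 0.0010) were called like the brightest, 1434813_x_at, while 1425106_a_at was near background and had a difference of 0.14. Names with x or s mark probes that also match other sequences. Sars was called in 1452000_s_at (1.12, adjusted p = 0.041), where it ranged from 7.21 to 8.39 in SOD1G93A and from 6.11 to 7.66 in WT mice.

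Eprs, the glutamyl-prolyl-tRNA synthetase of the complex, was called higher at week 11 in 1452158_at (0.93, adjusted p = 0.054), with 8.29 to 8.96 in SOD1G93A and 7.18 to 8.47 in WT mice. In that probe set the effect was lower at week 15 than at week 11 (-1.37, adjusted p = 0.050), and WT mice were higher at week 15 than at week 11 (1.04, adjusted p = 0.0094). Another probe set of Eprs, 1426713_s_at, was also called in the comparison of WT ages (0.94, adjusted p = 0.0032). Nars in 1428666_at had a difference of 0.80 at week 11 (adjusted p = 0.12) and a lower effect at week 15 (-1.21, adjusted p = 0.073).

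The mitochondrial Yars2 fell in 1430134_a_at at week 15. It ranged from 2.88 to 4.65 (median 4.40) with vehicle and from 4.74 to 6.22 (median 5.17) in WT mice, without overlap, as 0.923% of all genes did in that direction. This was a difference of -1.42 ± 0.28 (SE, adjusted p = 0.0036). In that probe set Yars2 was also lower in WT mice of week 15 than of week 11 (-0.92, adjusted p = 0.069). Its brightest probe set had a difference of 0.11 at week 15, on the other side of 0. Fars2 in 1439406_x_at was higher than in WT mice both with G-CSF (1.19, adjusted p = 0.035) and with vehicle (0.98, adjusted p = 0.036), while its brightest probe set gave 0.46 and -0.47. Over all 31352 probe sets tested, 1.72% were called higher and 4.2% lower with vehicle at week 15. Over all probe sets, G-CSF against vehicle called 0.0128% higher and 0.0255% lower, and no probe set of a member. In the other comparisons the shares called higher and lower were 0.348% and 0.778% for G-CSF against WT, 0.778% and 2.15% for the difference between the ages, and 3.29% and 2.26% for the WT ages. In the comparison of WT ages, Iars in 1452154_at had a difference of -1.84 (adjusted p = 0.0081) and Wars in 1437832_x_at one of 0.77 (adjusted p = 0.010). Wars in 1415694_at was not called there, with a difference of 0.07 and WT means of 5.34 at week 15 and 5.27 at week 11. Sars in 1452000_s_at was not called there either, with WT means of 7.56 at week 15 and 6.79 at week 11.

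**Figure D4:**
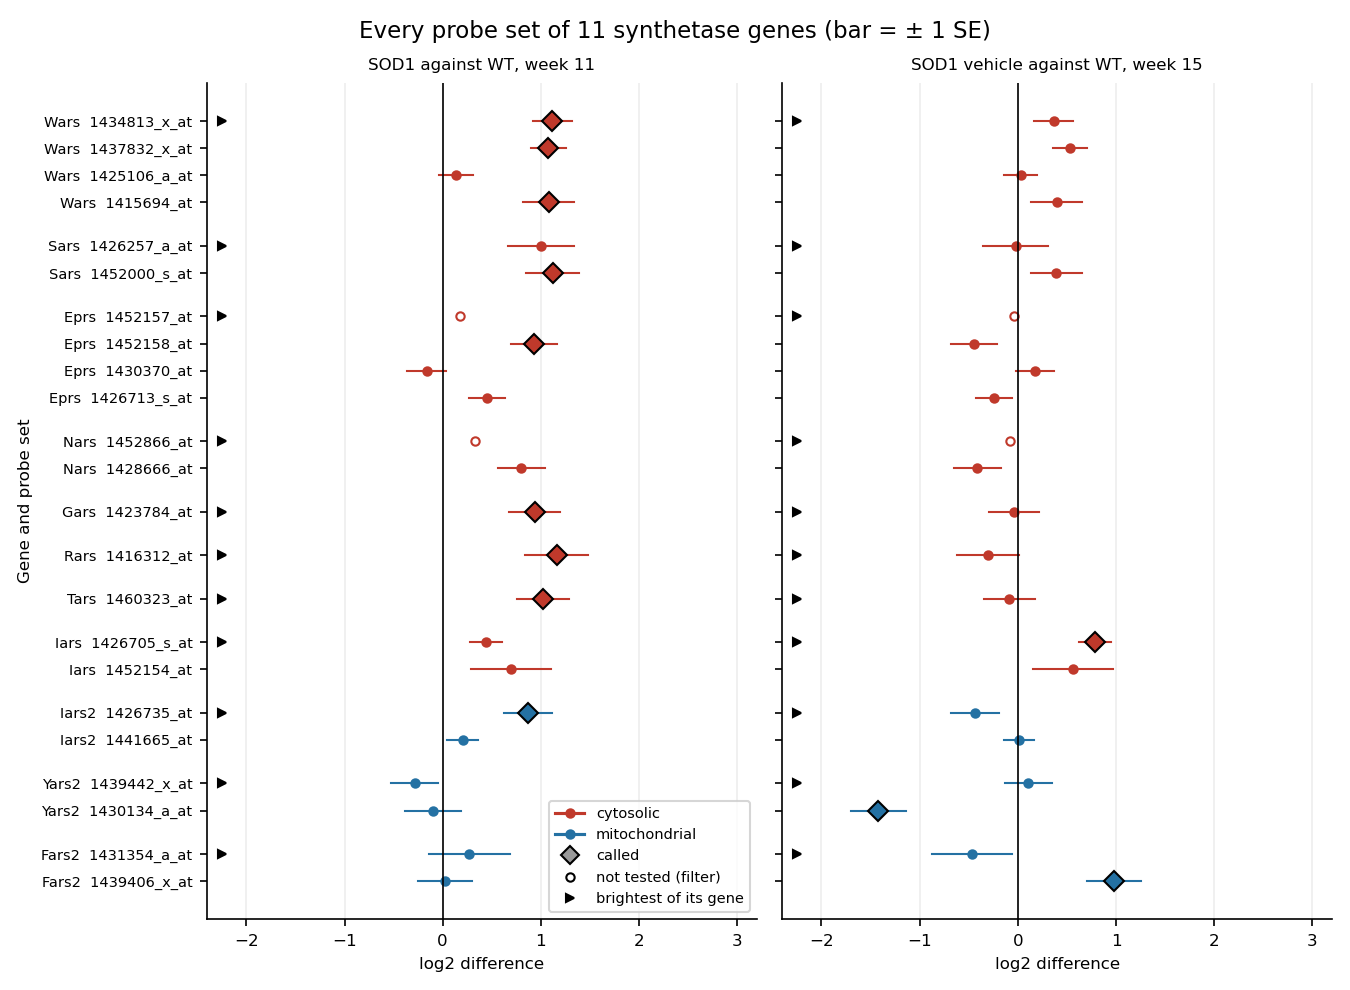
Log2 difference (horizontal axis) with its SE for every probe set of 11 synthetase genes at week 11 (left) and with vehicle at week 15 (right), with a triangle at the brightest probe set of each gene. Probe sets of Wars lie together near 1 at week 11 except 1425106_a_at at 0.14, and those of Yars2 part at week 15, with -1.42 and 0.11.

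Genes around the synthetases were read for context. Their lists were chosen with earlier results of these data known, so counts and medians of the lists are descriptions and not independent support. Of 11 genes that sense uncharged tRNA or form the ATF4 arm, 5 were higher at week 11, with the log2 difference in brackets, namely Ddit3 (1.74), Chac1 (1.18), Nupr1 (1.15), Atf4 (0.80) and Asns (0.66), beside 1.56% of all genes. At week 15 with vehicle 6 were higher, Ddit3 (1.90), Trib3 (2.30-fold), Nupr1 (1.02), Atf4 (1.00), Chac1 (0.84) and Sesn2 (0.79), beside 1.98% of all genes. Against WT mice, 4 were higher with G-CSF, Ddit3 (1.74), Nupr1 (1.61), Chac1 (0.73) and Atf4 (0.69), beside 0.467% of all genes. Atf4 encodes the transcription factor, Ddit3 the stress factor CHOP, and Asns the asparagine synthetase. The median of this list was 0.77 at week 11 and 0.79 at week 15 with vehicle, beside the 0.44 and 0.06 of the cytosolic synthetases, which after quantile normalization were 0.35 and 0.19. Cebpg, a partner of ATF4, had a lower effect at week 15 than at week 11 (-1.74, adjusted p = 0.099).

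**Figure D5:**
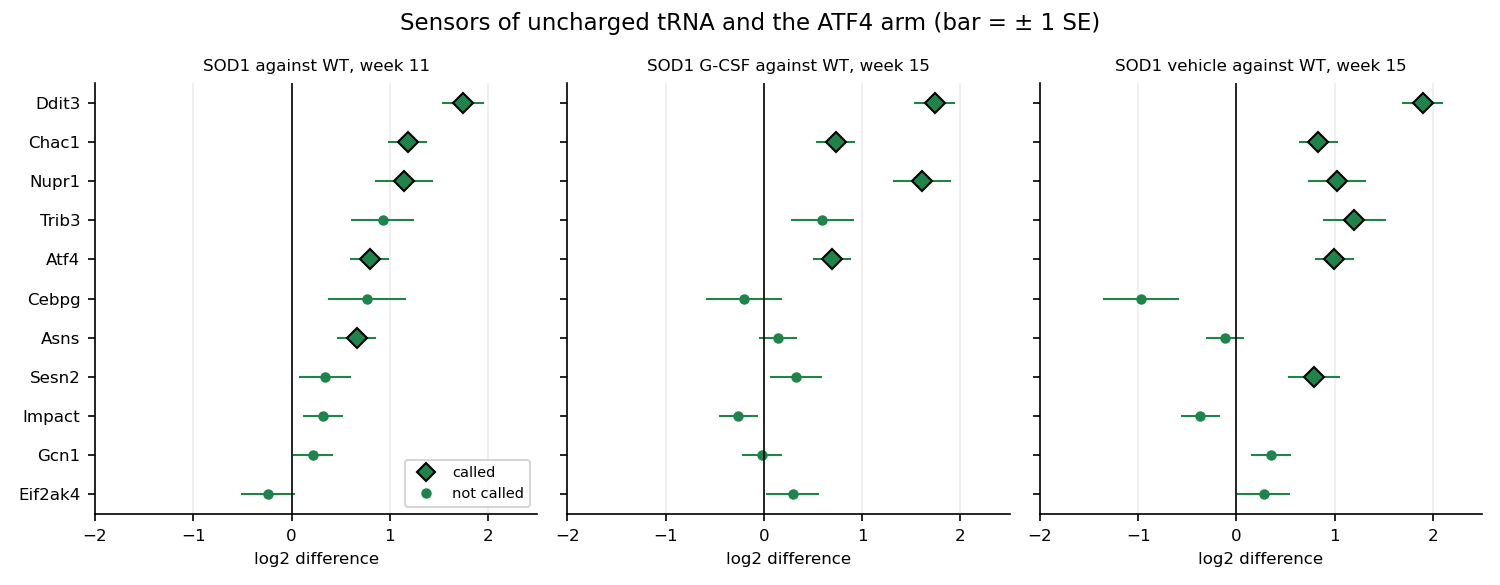
Log2 difference (horizontal axis) with its SE for 11 genes that sense uncharged tRNA or form the ATF4 arm, in SOD1G93A against WT mice at week 11, and with G-CSF and with vehicle against WT mice at week 15. Ddit3 is the rightmost in each panel, with 1.74, 1.74 and 1.90.

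Outside this arm few genes of the pathway were called. None of the 3 scaffold and partner genes of the complex, the 2 other synthetases measured, the 4 genes of the mitochondrial amidotransferase and formylation, or the 5 of tRNA end processing and export was called in its brightest probe set in any of the 6 comparisons. Among the 4 genes of editing and deacylation, Dtd2, which removes D-amino acids from tRNA, was lower with vehicle at week 15 (-1.29, adjusted p = 0.090). In WT mice Pstk, a kinase of the selenocysteine pathway, was lower at week 15 than at week 11 (-0.87, adjusted p = 0.024).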

How the data were processed

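RNA of 300 laser-dissected lumbar motoneurons per mouse was amplified and hybridised to 1 Affymetrix mouse array each, giving 35 arrays. The deposited values are log2 intensities that the authors computed with GCRMA in Affymetrix Expression Console; software versions were not given in the sources used here. GCRMA corrects background by probe sequence, and differences between values near background are to be read with caution. Arrays carry no read depth, and their number limits the precision.

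Groups were taken from the sample labels. A single model with 1 mean per group was fitted with limma 3.58.1 in R 4.3.3, and 6 comparisons were tested. Probe sets were kept when over the 20th centile of intensity on at least 4 arrays and over the 30th centile of SD, which left 31352. Adjusted p-values (Benjamini-Hochberg) ran over all of these in each comparison. The fit was tested on simulated data. Probe sets were named through the platform annotation, and loci through RefSeq on GRCm38.p6. The promoter sequence of Aars is not reported here. Values per mouse were given for every member called in any comparison, other members by counts and their largest differences, and other probe sets where they gave another call. Members and lists were chosen with earlier results of these data known. The labels number the replicates without naming animals; since cells were collected per mouse, each array was taken as 1 mouse, and p-values measure the spread between these samples. Which mice shared a litter is not given in the sources used here. Normalization, filters, thresholds, probe set choice, array weights, an 18S covariate, left-out arrays, a replicate block and the methods' analysis of variance were tried as alternatives; class medians were added to them after the data were seen.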

Additional observations from a re-analysis of the deposited data

Results flagged for a closer look

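Among 35 groups of mice examined for the 7 called members (5 groups for each gene), 5 held a highest or lowest mouse whose gap to the next, as a share of the range of the group, was over Dixon's critical value, which chance exceeds in about 1 in 20 groups. Gars was 7.58 in WT mouse 6 of week 11, while the other WT mice of that week lay between 9.68 and 9.96. The same mouse had 5.74 for Tars, with the others between 6.91 and 7.41. Rars was 7.19 in SOD1G93A mouse 1 of week 11, with the others between 8.55 and 8.74. Sars was 5.86 in vehicle mouse 3, with the others between 7.75 and 9.02. Tars was 7.55 in G-CSF mouse 3, with the others between 6.55 and 6.98.

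By the test of the difference between the ages, 5 of the 63 member probe sets tested were called. Each effect was lower with vehicle at week 15 than at week 11, as in 2.15% of all probe sets. The values were -1.46 for Rars, -1.31 for Iars2, -1.37 for Eprs in 1452158_at, -1.21 for Nars in 1428666_at and -1.32 for Yars2 in 1430134_a_at. The call of Rars was kept in 13 of 35 fits that left out a mouse. In the probe sets of Eprs and Yars2 the WT mice also differed between the ages (1.04 and -0.92).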

How the results depend on the processing

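At week 11 the count of 5 called members was 2 with the 18S covariate, 2 after quantile normalization and 2 with a replicate block, and between 4 and 7 under the other settings. Wars was called in all of them. The other called member was Lars with the 18S covariate, Gars after quantile normalization and Tars with the replicate block, so that 1 or 2 of the 5 kept their call there. At week 15 with vehicle the count of 1 was 2 with the 18S covariate, 4 with a minimum fold change of 1.2, 4 after quantile normalization and 3 without the 3 arrays that stood apart, of which 1, Iars2, was lower. With the probe set of highest SD it was also 1, but this one was Yars2, which was lower, and Iars was not called. G-CSF against WT gave 1, and 0 with the 18S covariate, 0 with only the groups compared and 0 with the probe set of highest SD, but 2 with array weights and 2 after quantile normalization. WT week 15 against week 11 gave 3, and 6 with array weights and 5 without the 3 arrays. The difference between the ages gave 2, and 0 with the 18S covariate, 0 after quantile normalization, 1 with a replicate block, 1 without the 3 arrays and 5 with the probe set of highest SD. Tukey's comparison could not be fitted to that difference. G-CSF against vehicle gave 0 throughout. The causes were not tested.

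Leaving out 1 mouse at a time, the counts ran between 1 and 8 at week 11, 1 and 3 at week 15 with vehicle, 0 and 0 for G-CSF against vehicle, 0 and 1 for G-CSF against WT, 0 and 3 for the difference between the ages and 2 and 5 for the WT ages. The count of 1 at week 11 came without SOD1G93A mouse 2. Gars and Rars were not called at week 11 without any of SOD1G93A mice 2, 3, 4, 5, 7 and 8 or WT mice 5 and 6, nor Gars without WT mouse 2 or Rars without WT mouse 4, and Tars not without SOD1G93A mice 2, 3, 7 and 8 or WT mice 5 and 6. Iars2 was called in 8 of the 35 fits. The differences ran between 0.56 and 1.04 for Gars, 0.83 and 1.34 for Rars, 0.79 and 1.12 for Tars and 0.80 and 0.98 for Iars2. In the other comparisons, Iars with G-CSF (0.53 to 0.74) was not called without G-CSF mice 4, 5, 6 and 7 or WT mice 1, 2 and 6, Sars in the WT ages (0.95 to 1.26) not without mice 1 and 5 of week 11 or 2, 3, 5 and 7 of week 15, and Iars2 in the difference between the ages (-1.58 to -1.17) not without SOD1G93A mouse 2 or WT mouse 6 of week 11 or vehicle mouse 3.

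Of 430 values of single members under other settings, 376 kept direction and call, 31 lost the call, 18 gained it and 5 changed sign. Those 5 were Fars2 (-0.074) and Kars (-0.0034) at week 11 without the 3 arrays, Qars (-0.21) and Tars2 (-0.062) at week 15 with the probe set of highest SD, and Sars in the WT ages with the 18S covariate (-0.76).

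For mice that share a replicate number in different groups, deviations from the group means had a mean correlation of -0.01 over 66 pairs, between -0.21 and 0.14. For mice of different number it was 0.002 over 423 pairs, between -0.19 and 0.32. A mean over all probe sets cannot show whether some mice shared a litter or a batch. With the replicate block the counts of called members were 2 at week 11, 1 with vehicle at week 15, 0 for G-CSF against vehicle, 1 for G-CSF against WT, 1 for the difference between the ages and 2 for the WT ages.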
